A study of Mustela putorius furo and Mus musculus with 4 samples.

Results

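The genes described here make, carry and destroy retinoic acid. They are 9 in number: Rdh10, Aldh1a1, Aldh1a2, Aldh1a3, Crabp1, Crabp2, Stra6, Cyp26a1 and Cyp26b1. They were taken by symbol, regardless of case, from the FPKM values of cultured ferret and mouse astrocytes, and all 9 were found in both species among 13373 shared symbols. FPKM scales the fragments of a gene by its exon length and by the depth of the library. The set was proposed because some of its members differ strongly between the species in these same libraries. The ferret and mouse levels of the 9 genes are therefore a description, with no test.

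Cultures of 2 species were compared, with 2 libraries each. Ferret astrocytes came from the cerebral cortex of sable ferrets on postnatal day 1, and mouse astrocytes from the cortex of wild-type ICR mice on postnatal day 1 to 3. Both were grown as mixed glia in serum for 14 days, shaken, a step meant to clear microglia and oligodendrocytes, and replated. Serum was removed from day 3 after replating to the harvest on day 7, which left 4 days in a serum-free medium with heparin-binding EGF-like growth factor. No allele or drug separated the groups. The cultures were not equal in origin, since cells of 1 ferret pup filled 4 flasks and cells of 4 mouse pups were pooled in 1 flask. The sources used here do not say whether the duplicate libraries came from separate cultures, so the p-values below measure only the spread between these libraries, which may be technical. Species, genome annotation and culture cannot be told apart in this design, and fewer cells of a type and less RNA per cell cannot be told apart either.

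Retinoic acid is a small lipid made from vitamin A that enters the nucleus and switches genes on. Retinol reaches cells on the carrier RBP4 and can be taken up through the receptor STRA6. RDH10 oxidises retinol to retinal, and the retinal dehydrogenases ALDH1A1, ALDH1A2 and ALDH1A3 oxidise retinal to retinoic acid. CRABP1 and CRABP2 hold retinoic acid in the cytoplasm, CRABP2 being known for delivery to the nuclear receptors. The P450 enzymes CYP26A1, CYP26B1 and CYP26C1 break it down, and Cyp26a1 is itself a textbook target that retinoic acid induces. In the developing forebrain the meninges are a known source of retinoic acid made by ALDH1A2.

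Reads can be assigned to the wrong member of a gene family when the members are alike, so the mouse coding sequences were compared. Mouse loci and sequences are those of GENCODE release M21 on GRCm38, the mouse build the authors used. The stretches printed here are the coding sequences, written 5′ to 3′, around the longest run of bases that the paralogs most abundant in either species share exactly. Capitals mark that run.
Aldh1a1: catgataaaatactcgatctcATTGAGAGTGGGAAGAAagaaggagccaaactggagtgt
Aldh1a3: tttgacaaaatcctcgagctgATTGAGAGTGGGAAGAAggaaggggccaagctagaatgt
Cyp26a1: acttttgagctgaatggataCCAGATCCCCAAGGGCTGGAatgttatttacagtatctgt
Cyp26b1: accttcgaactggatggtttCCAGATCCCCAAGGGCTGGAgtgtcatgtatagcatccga
The Aldh1a1 stretch lies in a single exon at chr19:20634364-20634423 on the plus strand, and the Aldh1a3 stretch in a single exon at chr7:66402061-66402120 on the minus strand. The Cyp26a1 stretch joins adjacent exons within chr19:37700756-37701054 on the plus strand, and the Cyp26b1 stretch joins exons within chr6:84574615-84575023 on the minus strand. The longest shared run was 17 bases between Aldh1a1 and Aldh1a3 and 20 bases between Cyp26a1 and Cyp26b1. The coding sequences were 69.1% and 62.2% identical over their aligned bases, and 0 windows of 100 bases were shared in either pair.

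The exception among the relatives was Aldh1a7, a rodent gene next to Aldh1a1 that has no ferret value here and was chosen after its values were seen. Its coding sequence was 91.6% identical to that of mouse Aldh1a1, with a longest shared run of 100 bases and 1 of 1407 windows of 100 bases in common. Aldh1a7 stood at 7.91 and 9.14 FPKM in the mouse libraries, against 151 and 156 for Aldh1a1. How many fragments the authors' quantification moved between these neighbours was not tested. The 9 mouse genes are protein-coding. Rdh10 lies on chromosome 1, Crabp2 on chromosome 3, Cyp26b1 on chromosome 6, Aldh1a3 on chromosome 7 and Aldh1a2, Crabp1 and Stra6 on chromosome 9, while Aldh1a1 and Cyp26a1 lie on chromosome 19. Ferret coordinates were not used here.

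The files hold FPKM and no read counts. Depth was inferred from steps between the lowest values. By these, ferret replicate 1 had about 1.17 times the depth of replicate 2, and mouse replicate 1 about 0.835 times that of replicate 2. In mouse genes with a single annotated transcript, 1 fragment over 1 kb of exon was worth about 0.031 FPKM in replicate 1 and 0.026 FPKM in replicate 2. The median absolute log2 difference between duplicates, on the scale of log2(FPKM + 1) that is used throughout, was 0.084 in ferret and 0.065 in mouse astrocytes. Of 13 astrocyte markers all 13 had values in both species, and Slc1a2, a glutamate transporter, was under 1 FPKM in ferret astrocytes. Gfap, an intermediate filament used as an astrocyte marker, stood at 1502 ± 29.1 FPKM for ferret against 1487 ± 82.7 FPKM for mouse (SD, n = 2 each). The markers as a whole were not equal. By the limits given below, 8 of the 13 were called lower and 1 higher in ferret, and 4 were not called. Apoe averaged 12.0 FPKM in ferret against 3175 in mouse astrocytes, and Aqp4 23.3 against 206. S100b, the marker called higher, averaged 246 against 60.2 FPKM.

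The retinal dehydrogenases were represented by different genes in the 2 species. In ferret libraries Aldh1a3 stood at 107 and 125 FPKM, and in mouse libraries at 0.298 and 0.303 FPKM. Aldh1a1 had the opposite order, with 0.749 and 0.515 FPKM in the ferret and 151 and 156 FPKM in the mouse libraries. Both ferret libraries were thus high for Aldh1a3 and low for Aldh1a1, both mouse libraries were the reverse, and the groups did not overlap for either gene. The difference, ferret minus mouse, was 6.49 for Aldh1a3 and -6.57 for Aldh1a1 on the log2(FPKM + 1) scale, or ratios of the mean FPKM of 385 and 244 in favour of the higher species. The low mouse values of Aldh1a3 rest on roughly 33 and 40 fragments, if spread over its longest transcript of 3443 bp. Aldh1a2 was the least abundant of the 3 in ferret astrocytes, at 0.064 and 0.054 FPKM, and stood at 4.13 and 4.42 FPKM in mouse astrocytes (log2 difference -2.32.)

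**Figure D1:**
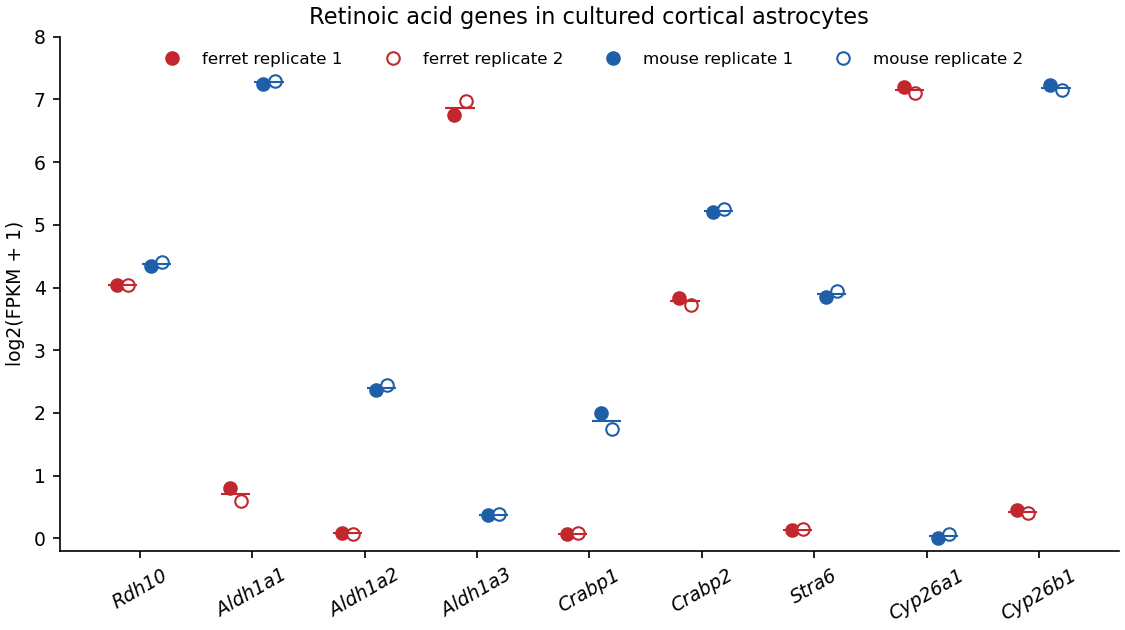
Level of the 9 retinoic acid genes in each library, as log2(FPKM + 1), with ferret libraries in red, mouse libraries in blue, replicate 1 filled, replicate 2 open, and a line at the mean of each species. Aldh1a3 and Cyp26a1 are high in ferret and near 0 in mouse astrocytes, Aldh1a1 and Cyp26b1 are the reverse, and Rdh10 lies close together in both species.

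Summed over the 3 genes, the level of retinal dehydrogenase RNA was of the same order in the species. In ferret libraries the sum came to 108 and 125 FPKM, and in mouse libraries to 156 and 161 FPKM. Aldh1a3 made up 99.4% ± 0.213 of it in ferret and 0.19% ± 0.0023 in mouse astrocytes (SD, n = 2 each). Aldh1a1 made up 0.553% ± 0.201 in ferret and 97.1% ± 0.0652 in mouse astrocytes, and Aldh1a2 made up 2.65% and 2.75% of the sum in the mouse libraries. These shares are taken within a library, so no scaling between libraries enters them, while the gene models behind each FPKM do. Among the 13373 shared genes, ferret Aldh1a3 ranked at positions 299 and 254 in the ferret libraries, and mouse Aldh1a1 at positions 258 and 259 in the mouse libraries.

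Breakdown of retinoic acid was split in the same manner between Cyp26a1 and Cyp26b1. Ferret libraries held Cyp26a1 at 145 and 136 FPKM, while it was listed at 0 in mouse replicate 1 and stood at 0.047 FPKM in mouse replicate 2. The last value corresponds to roughly 3 fragments over its longest mouse transcript of 1791 bp, so no ratio is given. Cyp26b1 stood at 0.374 and 0.317 FPKM in the ferret and at 149 and 141 FPKM in the mouse libraries. The groups did not overlap for either gene, and the log2 differences were 7.12 for Cyp26a1 and -6.76 for Cyp26b1. Cyp26c1, the remaining relative, was at most 0.075 FPKM in every library. The sum of the 3 genes, as deposited, was 146 and 137 FPKM in ferret and 149 and 141 FPKM in mouse libraries, from different genes. These totals were nearly equal only as deposited. All shared genes together summed to 227391 and 236543 FPKM in ferret and to 300465 and 308121 FPKM in mouse libraries. Rescaling to equal sums would therefore raise the ferret total over the mouse total. Cyp26a1 held 99.7% ± 0.0096 of the ferret sum, and Cyp26b1 held 99.97% ± 0.0062 of the mouse sum (SD, n = 2 each).

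**Figure D2:**
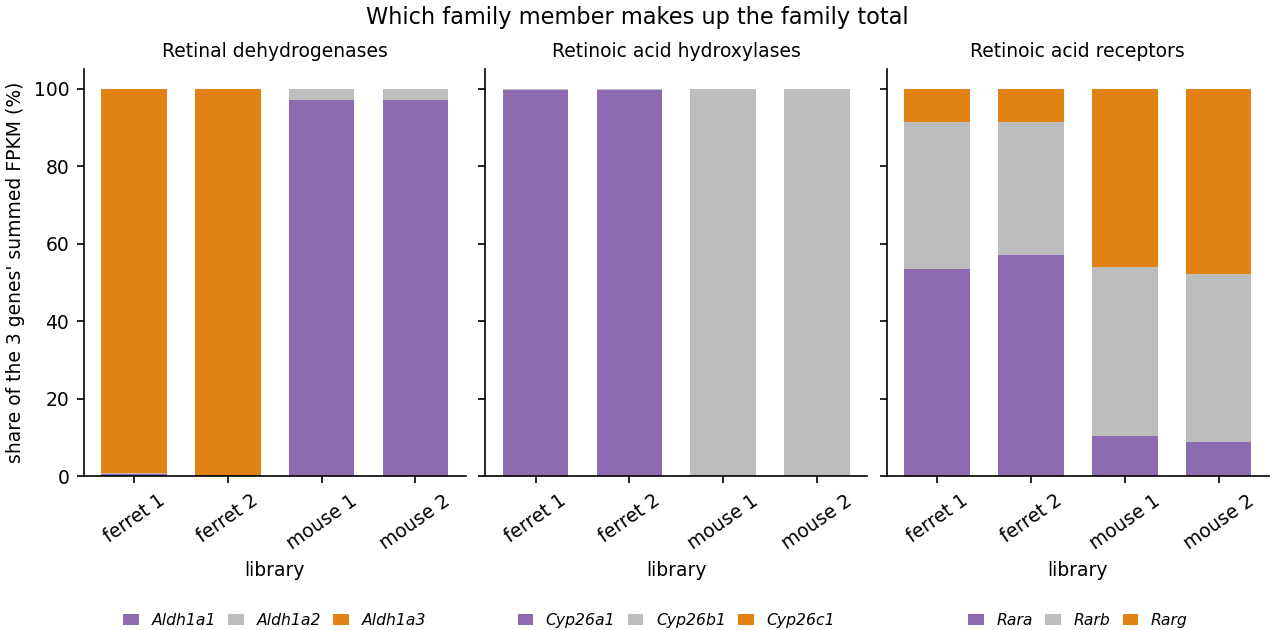
Share of each gene in the summed FPKM of its family (percent, y axis) in each of the 4 libraries (x axis), for the retinal dehydrogenases, the CYP26 enzymes and the retinoic acid receptors, with 3 genes a family. Aldh1a3 and Cyp26a1 fill nearly the whole bar in ferret, Aldh1a1 and Cyp26b1 in mouse libraries, and the share of Rara is 55.2% in ferret against 9.63% in mouse libraries.

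The step before retinal and the uptake of retinol were represented among the 9 genes by Rdh10 and Stra6 alone. An exchange between relatives could not be judged there, as Stra6l, Rdh1, Rdh11 and Rdh12 were not listed in ferret. Rdh10 stood at 15.4 and 15.5 FPKM in the ferret and at 19.2 and 20.3 FPKM in the mouse libraries. Its log2 difference of -0.33 was close to the median of -0.35 over all 10204 genes tested, and it turned to 0.04 when the libraries were rescaled to equal sums over the shared genes and to 0.06 after quantile normalization, so Rdh10 has no direction that holds across scalings. Stra6 stood at 0.095 and 0.111 FPKM in the ferret and at 13.4 and 14.4 FPKM in the mouse libraries (log2 difference -3.76.) The groups did not overlap for Stra6, and mouse values lay at the 66.1 and 67.8 percentiles of the shared genes in their libraries, against 18.4 and 19.3 for the ferret values.

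Of the binding proteins, Crabp2 was the main gene in both species. It stood at 13.3 and 12.3 FPKM in the ferret and at 35.9 and 37.1 FPKM in the mouse libraries (log2 difference -1.45.) Crabp1 was low throughout, at 0.048 and 0.056 FPKM in the ferret and at 3.01 and 2.33 FPKM in the mouse libraries (log2 difference -1.80.) Both mouse libraries lay above both ferret libraries for each gene. Crabp2 made up 99.6% ± 0.0685 of the summed Crabp1 and Crabp2 FPKM in ferret and 93.2% ± 1.29 in mouse astrocytes (SD, n = 2 each).

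As deposited, ferret astrocytes had the higher level of 2 of the 9 genes and mouse astrocytes that of the other 7, and the libraries of the species did not overlap for any of the 9. Over all 10204 genes tested the species did not overlap for 94.1%, so separation of 2 libraries from 2 is the usual case here. A log2 difference above 1 in size was reached by 8 of the 9, of which 2 were higher and 6 lower in ferret. Over all genes tested, 43.2% passed that size together with a limma p under 0.05 after Benjamini-Hochberg adjustment, with 13.1% higher and 30.1% lower in ferret. The proposal of the genes used this contrast, so nothing is read from these counts. Their median log2 difference was -1.80. All 9 passed the limit of a mean of 1 FPKM in at least one species, 2 of them in both species, 5 through mouse astrocytes alone and 2 through ferret astrocytes alone.

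**Figure D3:**
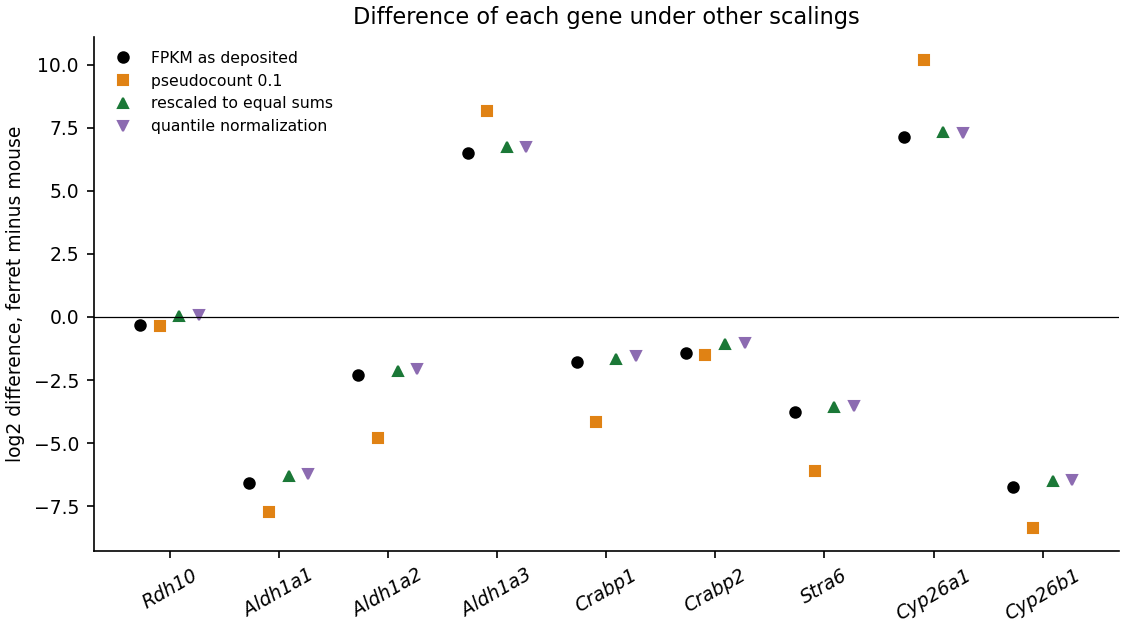
Log2 difference of each of the 9 genes, ferret minus mouse (y axis), with FPKM as deposited and a pseudocount of 1 (circles), a pseudocount of 0.1 (squares), libraries rescaled to equal sums (upward triangles) and quantile normalization (downward triangles). The sign of Rdh10 changes after rescaling and quantile normalization, while the other 8 genes keep theirs. The smaller pseudocount moves genes near 0 in a species farthest, from 7.12 to 10.18 for Cyp26a1 and from -2.32 to -4.78 for Aldh1a2.

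The genes whose levels lay nearest to each of the 9 over the 4 libraries were found by Euclidean distance on log2(FPKM + 1), with at most 3 given for each. With 4 libraries in 2 groups this measure reflects little more than the mean of each species. Nearest to Cyp26a1 were Calcoco2 and Pam, at distances of 0.51 and 0.99, and nearest to Aldh1a3 were Psmd5, Rtl5 and Agt, at 0.55 to 0.61. Nearest to Aldh1a1 were Tyrobp and C1qc, at 0.17 and 0.44, which are microglial markers, and Cavin2, at 0.51. Cemip, Cavin2 and Tyrobp were nearest to Cyp26b1, at 0.40 to 0.48. The lower genes had closer neighbours. These were Rab20, Evi2b and Ndnf for Aldh1a2, Ly9, Ppp1r3f and Dpep2 for Crabp1, and Coch, Hs3st1 and Tnr for Stra6, all within 0.15. Kif1bp, Decr1 and Enpp5 lay within 0.12 of Crabp2, and Bsdc1, Necap1 and Usp16 within 0.11 of Rdh10.

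Other genes of vitamin A metabolism were taken from a list of 45, of which 24 could be tested, 11 were under the limit of 1 FPKM and 10 were not listed in the ferret values used here, Fabp5, Rdh11 and Dhrs4 among them. These genes were called by the same 2 limits, with the adjustment over all 10204 genes. By this rule ferret astrocytes were higher for 4 of the 24 and lower for 8, which is 16.7% and 33.3%. Rbp4 and Rxrg, among those called higher, were under 1 FPKM in mouse astrocytes and entered the test through ferret astrocytes alone. Over all genes tested 13.1% were called higher and 30.1% lower, so the list as a whole lay near the background, and its median log2 difference of -0.19 lay near the median of -0.35 of all genes. The direction of calls over all genes depended on scaling, with 30.3% of called genes higher in ferret as deposited, 46.9% after rescaling to equal sums and 50% after quantile normalization. For some lists below, counts at an unadjusted p under 0.05 are also given, without the share over all genes. The species did not overlap for 94.1% of all genes tested, so nothing is read from those counts.

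Among carriers, uptake and storage, Rbp4 showed the largest difference. Rbp4, which carries retinol in blood and binds STRA6, stood at 23.9 and 23.4 FPKM in the ferret and at 0.111 and 0.154 FPKM in the mouse libraries (log2 difference 4.44 with a standard error of 0.0738, limma adjusted p = 3.37e-11). The carrier was thus high in the species in which Stra6, its receptor, was near 0. Bco2, which cleaves carotenoids, was also higher in ferret, at 7.95 and 7.79 against 1.38 and 1.54 FPKM (log2 difference 1.85, limma adjusted p = 7.75e-09). Scarb1, a receptor that takes up carotenoids, differed by 0.85 and was called only after rescaling, at 1.22, and after quantile normalization, at 1.25. Dgat1, which can esterify retinol, stood at 10.8 and 10.7 against 10.5 and 9.71 FPKM (adjusted p = 0.318 by limma). Lrat, the main retinol esterifying enzyme, was under 1 FPKM in both species.

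Of 17 enzymes that act on retinol or retinal, the aldehyde dehydrogenase Aldh8a1 among them, only 5 could be tested. Of the rest, 6 were under the limit and 6 not listed in ferret. By limma 4 of the 5 were called lower in ferret astrocytes, against 30.1% of all genes, and 0 higher, with 0 higher also at an unadjusted p under 0.05. Among those under the limit, Rdh8 stood at 0.573 and 0.448 FPKM in ferret libraries and was listed at 0 in both mouse libraries. Dhrs3, which reduces retinal back to retinol and is induced by retinoic acid, stood at 14.5 and 16.9 FPKM in ferret and at 73.7 and 73.9 FPKM in mouse libraries (log2 difference -2.17 with a standard error of 0.0749, limma adjusted p = 2.28e-09). Rdh14 and Rdh13 differed by -2.09 and -1.87, and the alcohol dehydrogenase Adh5 by -1.49, with adjusted p-values of at most 7.67e-09. Rdh5 stood at 13.8 and 16.5 against 13.4 and 15.5 FPKM and was not called (adjusted p = 0.529 by limma).

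**Figure D4:**
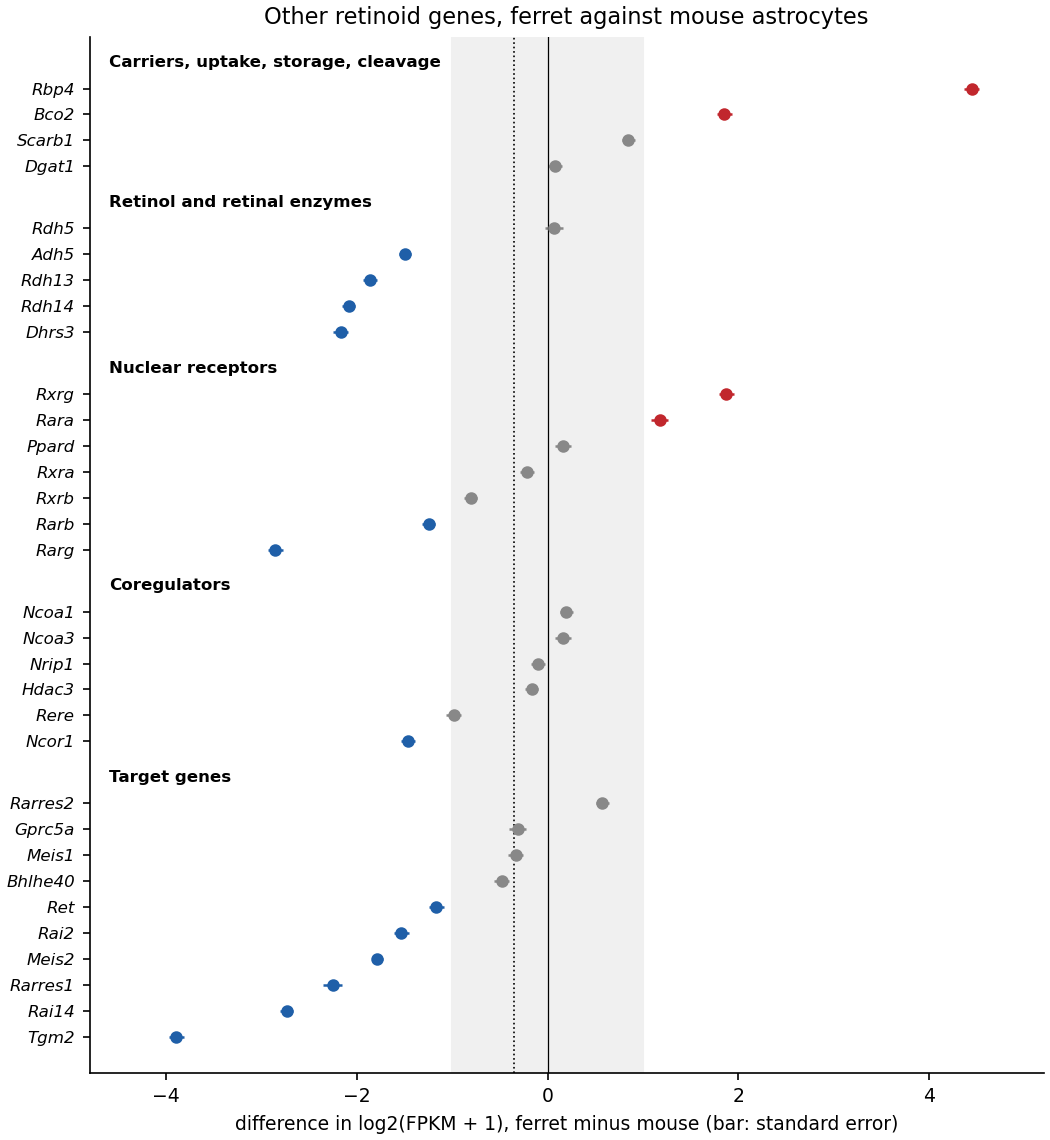
Difference in log2(FPKM + 1), ferret minus mouse, with its standard error for tested retinoid genes outside the 9, grouped by role. Red marks genes called higher and blue genes called lower in ferret astrocytes, grey marks genes not called, the shaded band runs from -1 to 1 and the dotted line is the median of all tested genes at -0.35. Rbp4 stands farthest to the right at 4.44 and Tgm2 farthest to the left at -3.89.

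The nuclear receptors for retinoic acid also differed in their make-up. Rara stood at 7.96 and 9.33 FPKM in ferret and at 3.46 and 3.07 FPKM in mouse libraries (log2 difference 1.17, limma adjusted p = 8.21e-07). Rarg had the opposite order, at 1.30 and 1.39 against 15.3 and 16.6 FPKM (log2 difference -2.86, limma adjusted p = 4.84e-10). Rarb, itself a target of retinoic acid, stood at 5.66 and 5.64 against 14.4 and 15.1 FPKM and was called lower at -1.25, but not at -0.90 after rescaling or at -0.83 after quantile normalization. Within the 3 receptors, the share of Rara in the summed FPKM was 55.2% ± 2.59 for ferret and 9.63% ± 1.13 for mouse libraries (SD, n = 2 each). That of Rarg was 8.59% ± 0.147 and 46.9% ± 1.25. Of their partners, Rxrg was higher in ferret, at 3.76 and 3.93 against 0.278 and 0.373 FPKM (log2 difference 1.87, limma adjusted p = 9.49e-09). Rxra, Rxrb and Ppard were not called, with log2 differences of -0.22, -0.81 and 0.16.

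Of 7 coregulators of these receptors that could be tested, limma called 0 higher and 1 lower, and 6 were not called, where 43.2% of all genes were called. At an unadjusted p under 0.05 there was 1 higher. The corepressor Ncor1 was the gene called, at up to 15.6 FPKM in ferret against at least 41.5 FPKM in mouse libraries (log2 difference -1.46, limma adjusted p = 2.45e-08). Rere stood at -0.99, just short of the limit of 1. Ncoa1 and Hdac3 differed by 0.20 and -0.17, and the sign of Hdac3 changed after rescaling and after quantile normalization.

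Targets of retinoic acid were taken from a list of 21 genes outside the lists above, of which 10 could be tested. By limma 6 of the 10 were lower and 0 higher in ferret astrocytes, which is 60% lower against 30.1% over all genes. Among the 13 astrocyte markers 61.5% were called lower, so such a share is not particular to the targets. At an unadjusted p under 0.05 there were 9 lower and 1 higher. With only 10 genes, chosen by hand, nothing is read from these counts. Tgm2, a transglutaminase, stood at 2.66 and 3.28 FPKM in ferret and at 58.2 and 57.3 FPKM in mouse libraries (log2 difference -3.89 with a standard error of 0.0819, limma adjusted p = 1.09e-10). Rai14 stood at 4.15 and 4.45 against 34.2 and 34.3 FPKM, Rarres1 at 2.33 and 1.75 against 12.8 and 14.1 FPKM, and the homeobox gene Meis2 at 12.6 and 12.3 against 45.0 and 45.8 FPKM. Their log2 differences were -2.74, -2.25 and -1.78. Rai2 and the receptor gene Ret were lower by smaller margins, at -1.53 and -1.17, and Ret was not called after quantile normalization, at -0.90. In ferret astrocytes these genes averaged 0.661 and 0.196 FPKM, so both entered the test through mouse astrocytes alone. Rarres2, which encodes chemerin, and Bhlhe40 were not called, at 0.57 and -0.48. The remaining 11 genes were under the limit, and the 9 Hox genes on the list were at most 0.259 FPKM in every library. None of the 9 genes chosen for their difference is counted here, the target Cyp26a1 included. Whether others of the 9 respond to retinoic acid was not examined.

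Markers of other cells also differed between the species, and their part in the results above was not tested. Over all genes tested, 13.1% were called higher and 30.1% lower in ferret, which is the background for the counts below. The sums given here cover markers listed in both species. Of 12 markers of meningeal fibroblasts, cells known to make retinoic acid, 9 could be tested and all 9 were lower in ferret astrocytes. Of these, Lum, Foxc1 and Pcolce averaged 0.76, 0.93 and 0.71 FPKM in ferret and entered the test through mouse astrocytes alone. The summed FPKM of the fibroblast list was 113 to 128 in ferret and 1136 to 1179 in mouse libraries. Twist1, not listed in ferret, stood at 13.1 and 13.2 FPKM in mouse libraries. Col3a1, Ogn and Dcn were present in mouse libraries at 388, 159 and 41.4 FPKM and at 1.52, 1.19 and 1.67 FPKM in ferret libraries, while the meningeal transporters Slc6a13 and Slc22a6 were listed at 0 in both mouse libraries. Of 15 microglial markers, 14 could be tested and all 14 were lower in ferret, with sums of 8.06 to 9.09 and 766 to 797 FPKM. Of these, 12 were under 1 FPKM in ferret astrocytes and entered the test through mouse astrocytes alone. The 7 retinoic acid genes that were higher in mouse astrocytes as deposited share the direction of the fibroblast and microglial lists by definition. For Rdh10, among the 7, that direction did not hold after rescaling or quantile normalization. With 2 groups, direction cannot place any of the 7 genes with either list. Cx3cr1 was listed at 0 in both ferret libraries, and C1qa, at 193 FPKM in mouse libraries, was not listed in ferret. Of 10 markers of the oligodendrocyte lineage 8 could be tested, with 3 higher in ferret and 0 lower by limma (6 higher and 2 lower at an unadjusted p under 0.05), and sums of 169 to 188 against 69.0 FPKM. Olig1 was left out of these sums, being not listed in ferret, and alone stood at 107 and 117 FPKM in mouse libraries, so the sums give no direction for the whole list. Vascular markers were called higher for 1 and lower for 3 of 4 tested, with Pecam1, Tek, Cdh5 and Rgs5 listed at 0 in both ferret libraries. Of 4 neuronal markers tested 3 were higher in ferret, with sums of 28.1 to 28.2 against 32.4 to 33.6 FPKM that leave out Stmn2, not listed in ferret and at 124 and 127 FPKM in mouse libraries. Of 3 markers of ependyma and choroid plexus 1 was lower, with sums of 22.9 to 24.1 against 46.4 to 48.4 FPKM that leave out Aqp1, not listed in ferret and at 69.6 and 75.2 FPKM in mouse libraries. In these lists Sox10, Kcnj8, Dcx and Gad1, called higher, entered the test through ferret astrocytes alone. Tek, Cdh5 and Folr1, called lower, entered through mouse astrocytes alone. Of the 13 astrocyte markers 1 was called higher and 8 lower in ferret, with Slc1a2 admitted through mouse astrocytes alone.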

How the data were processed

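RNA was sequenced from cultured ferret astrocytes (2 libraries) and mouse astrocytes (2 libraries). The authors aligned stranded, polyA-selected paired-end reads with STAR 2.7.0f to the Ensembl genome of each species and deposited FPKM values for each gene, computed per library with Cufflinks 2.2.1, with tools and versions per the submitters' processing notes. No counts are in these files, so depth was inferred as a ratio within a species and, for the mouse, from the spacing of low values. The authors also report read counts with the paper, and those were not used here.

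Symbols were matched in upper case, and of several values under a symbol the one highest on average was kept (0 of the 9 genes). The species were compared for the 10204 genes averaging at least 1 FPKM in either, by limma 3.58.1 (R 4.3.3) with a mean-variance trend, on log2(FPKM + 1), where differences of weakly expressed genes come out too small. With 2 libraries a species, no exact permutation test of a single gene can pass 0.05. On simulated data for 10204 genes, 99% of 200 genes changed by a log2 value of 1.5 were called, and 0 unchanged genes. The simulated libraries had the spread of the duplicates and no shift of scale or annotation between species. The simulation therefore checks the code and does not give the rate of false calls in these data. Joins and figures were made in Python 3.11.15, and coding sequences were aligned with Biopython 1.88.

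The 9 genes and the lists were chosen with earlier results of these data known. Named are all 9, each gene of the pathway and target lists that was called or reached 10 FPKM, and the 3 nearest genes of each of the 9, except for a few that are counted but not reported here. Replicate numbers come from the labels alone, since the species' libraries are from different animals. Alternatives were a pseudocount of 0.1, no filter, rescaling to the mean library sum, quantile normalization, summed values per symbol, the replicate number as a block, and each library left out. Protein and promoter sequences and a ferret genome were not used here.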

Additional observations from a re-analysis of the deposited data

How the results depend on the processing

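With quantile normalization, 2080 genes were called higher in ferret astrocytes in place of 1336, and with each library left out in turn the count ran from 1316 to 1372 (1 species then had a lone library, assumed to vary like the others). Calls among the 24 other retinoid genes ran from 4 to 5 higher and from 7 to 9 lower, and among the targets from 5 to 6 lower and 0 higher, over all alternatives. Rdh10 turned to 0.036 after rescaling and 0.064 after quantile normalization, and Hdac3 to 0.21 and 0.22. Rdh5, not called, turned to -0.057 without ferret replicate 2 and -0.03 without mouse replicate 1, and ran up to 0.189 with 1 library left out. Rere was called lower with a pseudocount of 0.1 (-1.08), without ferret replicate 2 (-1.04) and without mouse replicate 2 (-1.06). The cause of these changes was not tested. The log2 difference of the other 8 genes kept its sign under every alternative run, but with a pseudocount of 0.1 Cyp26a1 moved from 7.12 to 10.18, Aldh1a2 from -2.32 to -4.78, Crabp1 from -1.80 to -4.18 and Stra6 from -3.76 to -6.11. The replicate numbers do not pair the libraries (correlation of same-numbered deviations 0.00995), and with the replicate block 1342 genes were called higher and 3072 lower, against 1336 and 3069, with the counts in both retinoid lists the same. Depth limits the low values, as mouse Cyp26a1 rests on about 3 fragments in 1 library.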

Other observations

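Other enzymes of the 2 families were counted by symbol, a choice made after the values of the retinoic acid genes were seen. Of 13 other aldehyde dehydrogenase genes 12 passed the limit of 1 FPKM, and limma called 2 higher and 4 lower in ferret, where 13.1% and 30.1% of all genes tested were called. Aldh1b1 and Aldh3a1, among those called lower, passed the limit through mouse astrocytes alone. Their median difference was -0.47 on the log2 scale. Aldh1l1, a folate enzyme used as an astrocyte marker, stood at 10.1 and 9.60 FPKM in ferret and at 81.2 and 84.3 FPKM in mouse libraries, and Aldh3b1 differed by -1.78. Aldh5a1, which acts in GABA breakdown, was higher in ferret at 15.3 and 15.3 against 6.79 and 7.25 FPKM (log2 difference 1.02.) None of the 13 was under 1 FPKM in one species and at least 10 FPKM in the other, as Aldh1a1 and Aldh1a3 were. Those genes belong to a set proposed for such differences, and the share of all shared genes with this pattern was not counted. Nothing is therefore read from this contrast.

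Of 21 other cytochrome P450 genes 9 passed the limit of 1 FPKM, with 5 called higher and 2 lower in ferret by limma, against the same 13.1% and 30.1%. Cyp1a1, Cyp19a1 and Cyp2r1, called higher, passed the limit through ferret astrocytes alone, and Cyp46a1, called lower, through mouse astrocytes alone. Their median difference was 1.06 on the log2 scale. Cyp1b1 stood at 131 and 128 FPKM in ferret and at 62.8 and 60.6 FPKM in mouse libraries (log2 difference 1.06 with a standard error of 0.0566, limma adjusted p = 4.95e-08). Cyp1a1 stood at 9.81 and 11.1 against 0.275 and 0.140 FPKM. Apart from Cyp26a1 and Cyp26b1, it was the single P450 gene averaging under 1 FPKM in one species and at least 10 FPKM in the other. The limit given for the aldehyde dehydrogenases holds for this contrast too. Cyp19a1, the aromatase, stood at 5.42 and 5.37 FPKM in ferret and at 0 and 0.011 FPKM in mouse libraries. Cyp46a1, which hydroxylates cholesterol in the brain, was lower in ferret, at 0.838 and 0.889 against 8.83 and 8.88 FPKM (log2 difference -2.40.)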
